A study of Mus musculus with 6 samples.

Results

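The NF-κB subunits and the regulators that NF-κB induces against itself were followed in the lungs of endotoxaemic mice. The group holds 10 genes chosen by function and by name, namely the 5 subunit genes Nfkb1, Nfkb2, Rel, Rela and Relb and the 5 inhibitors and co-regulators Nfkbia, Nfkbiz, Nfkbie, Tnfaip3 and Bcl3. All 10 were among the 16370 genes that could be tested. Male C57BL6 mice, 10 weeks old, were starved for 16 h and given LPS, the endotoxin of Gram-negative bacteria, at 20 mg/kg into the peritoneum. They then received either saline or rhTM at 3 and 24 h after LPS, and whole lung was taken at 30 h. Thrombomodulin is an endothelial receptor for thrombin that promotes activation of protein C, and rhTM is its recombinant human form. RNA from the lungs of 3 mice given saline and 3 given rhTM was hybridised to 1-colour Agilent arrays, 1 array per mouse. Both groups had received LPS, and no array of a mouse without LPS was analysed here, so the values compare rhTM with saline after LPS and do not measure the response to LPS itself.

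NF-κB is a family of dimeric transcription factors that IκB proteins hold in the cytoplasm. Signals such as LPS acting through Toll-like receptor 4 activate the IκB kinase complex, which marks the IκB proteins for destruction and frees the dimers to enter the nucleus. The freed dimers switch on inflammatory genes in endothelium, epithelium and leukocytes of the lung, and also genes that end the response, including their own inhibitors. Activation itself is a change of protein location and is not read by an RNA measurement.

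The promoters of several of these genes carry κB elements, the sequences that NF-κB dimers bind. RefSeq promoter windows on GRCm38.p6, each holding 250 bases before and 50 bases after an annotated transcription start, were found for 7 of the 10 genes in 10 windows. They were searched on both strands for the κB consensus, and overlapping matches were counted as 1 place. The consensus was held by 8 of the 10 windows and by 6 of the 7 genes, and Rela had no match in its window. Over all 32851 windows, 1480 (4.51%) held it, and over all 27025 gene symbols, 1388 (5.14%) did. With a further base of the consensus left free, 8.46% of all windows matched and the same number of windows of these genes, 8, did. A match describes the letters only, and its absence says only that these letters are not in this window. The stretches nearest to the annotated starts are shown because induction by NF-κB through κB elements is the textbook feedback that joins these genes, and the matching bases are in capitals.
Nfkbia, chr12:55492598-55492897, minus strand: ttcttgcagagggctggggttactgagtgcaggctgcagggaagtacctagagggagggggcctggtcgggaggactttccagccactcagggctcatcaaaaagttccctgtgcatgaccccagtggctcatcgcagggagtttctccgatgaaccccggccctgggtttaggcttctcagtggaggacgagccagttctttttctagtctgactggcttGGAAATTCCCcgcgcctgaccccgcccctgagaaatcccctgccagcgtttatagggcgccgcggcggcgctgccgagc
Tnfaip3, chr10:19015388-19015560, minus strand: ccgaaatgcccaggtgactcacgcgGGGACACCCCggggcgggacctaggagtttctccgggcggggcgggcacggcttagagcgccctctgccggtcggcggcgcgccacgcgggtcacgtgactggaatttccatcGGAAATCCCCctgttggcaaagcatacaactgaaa
Nfkb2, chr19:46304673-46304760, plus strand: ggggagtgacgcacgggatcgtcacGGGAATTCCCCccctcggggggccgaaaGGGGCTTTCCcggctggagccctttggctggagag
Nfkb2, chr19:46305680-46305739, plus strand: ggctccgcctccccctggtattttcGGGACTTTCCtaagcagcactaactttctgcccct
Rel, chr11:23771026-23771086, minus strand: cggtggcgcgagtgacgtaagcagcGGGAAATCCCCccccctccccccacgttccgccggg
Bcl3, chr7:19822719-19822778, minus strand: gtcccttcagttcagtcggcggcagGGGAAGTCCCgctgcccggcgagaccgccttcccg
Nfkbie, chr17:45555569-45555628, plus strand: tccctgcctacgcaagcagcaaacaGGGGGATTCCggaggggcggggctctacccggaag

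The match of Nfkbia, GGAAATTCCC, began 29 bases before the annotated start. Those of Tnfaip3 began 125 and 12 bases before it in one window and were missing from its other window. Nfkb2 had 3 windows, all with matches, and the first held overlapping matches 39 bases before the start and another 11 bases before it. The other two windows of Nfkb2 overlap and share the element GGGACTTTCC, and the upstream one of them also held GGAATGTCCC 236 bases before its start, in a stretch left out above. The matches of Rel and Nfkbie began 92 and 106 bases before the start, and that of Bcl3 lay 2 bases after it.

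An array does not measure a number of molecules. Each signal below is a multiple of the 75th percentile of all probe signals on the same array, and levels of different genes are not compared because they come from different probes. Before any result, a conflict in the deposit has to be stated. The authors' value table gives the array of saline replicate 1 to rhTM replicate 2 and the reverse, with 99.82% and 99.85% of probes equal to the other array within 0.1%, and 0.1378% and 0.136% equal to their own. The labels do not settle which is right, so the fold change of each gene is given from the scanner data, from the table, and without both arrays. Groups of mice named by replicate number follow the scanner data unless the table is named. The first slide held 4 arrays and the second held saline 1 and rhTM 3, and saline 1 also had a spike-in slope of 0.8263 against 1.071 to 1.09 elsewhere. Between 36243 and 40647 probes per array were well above background, and the lung markers Sftpc, Ager and Scgb1a1 were well above it on all 6 arrays. The 3 arrays per group limit the precision of every value. In whole lung, fewer cells of a type and less RNA per cell cannot be told apart.

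No gene of the NF-κB group passed the test of a difference between rhTM-treated and saline-treated lungs 30 h after LPS. By limma, 0 of the 10 genes passed an adjusted p of 0.05, as did 0% of all genes tested, and 0 of the 10 had an unadjusted p under 0.05, against 306 of all 16370 (1.87%). By the authors' table the counts were again 0 of 10 and 0 of 10, against 0% and 14.0% of all genes. The means of 5 genes were higher with rhTM and those of 5 were lower, by both sources, and 50.7% of all genes had higher means in the scanner data and 46.0% in the table. The groups did not overlap for 0 of the 10 genes in the scanner data, where 5.52% of all genes had groups that did not overlap, and for 1 of the 10, Rela, in the table, where 21.7% did. The median log2 fold change of the 10 genes was -0.02 in the scanner data and -0.0018 in the table, and that of all genes was 0.0026 and -0.02. Without the exchanged arrays, 5 of the 10 genes were higher and 5 lower, with a median of 0.03.

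By the brightest probe of each gene, the 95% intervals of the 10 log2 fold changes lay between -0.75 and 0.60 in the scanner data and between -0.64 and 0.75 in the table, so a 2-fold change in either direction was outside each of these intervals under both assignments. No intervals were fitted for the second probes alone. The interval of Relb was the narrowest in the scanner data and spanned 0.52 log2 units, and that of Bcl3 was the widest and spanned 1.10. Differences within these intervals could not be told from 0 with 3 arrays per group.

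**Figure D1:**
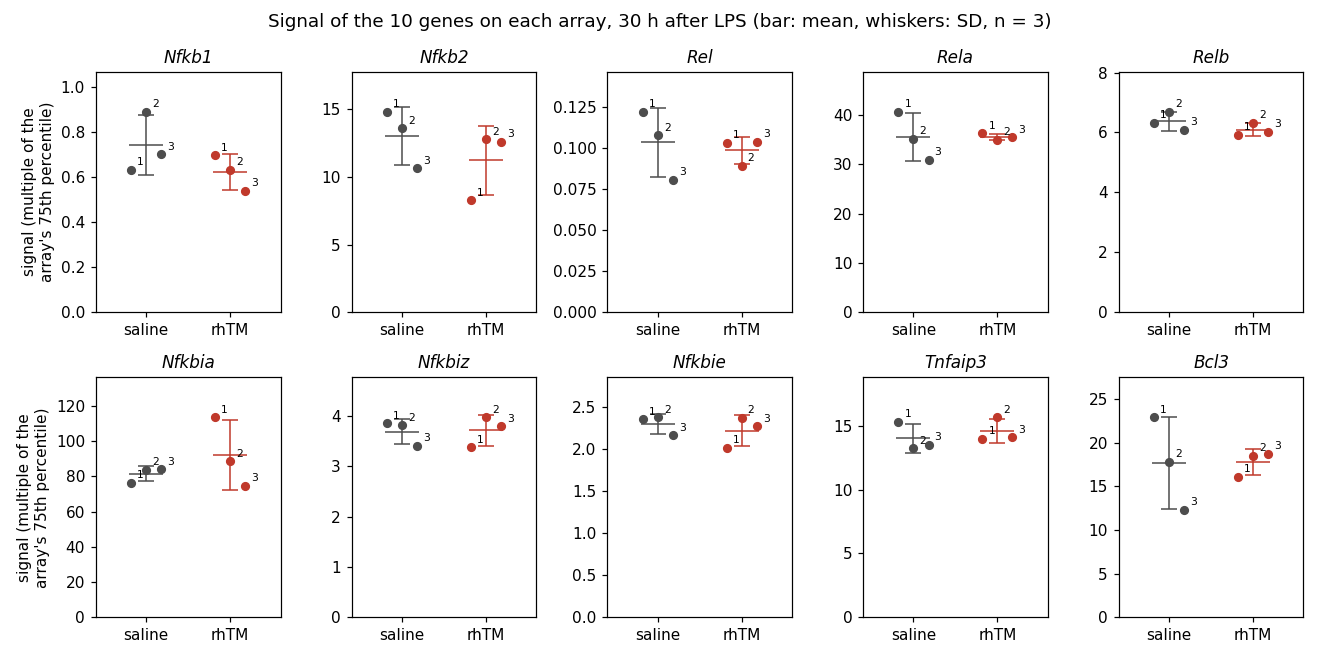
Signal of each of the 10 genes on each array, as a multiple of the 75th percentile of that array (vertical axes start at 0), in saline-treated and rhTM-treated mice in the scanner data. Points are arrays numbered by replicate, the bar is the mean and the whiskers are the SD (n = 3); the groups overlap in every panel.

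Among the subunits, Rela and Rel carry transactivation domains in the canonical pathway. The Rela signal, of the p65 subunit, was 40.6, 35.2 and 30.9 times the 75th percentile in saline mice 1, 2 and 3 and 36.3, 34.9 and 35.5 times in rhTM mice 1, 2 and 3. The rhTM-treated mice lay within the range of the saline-treated mice and were closer to each other, with 35.6 ± 0.676 (SD, n = 3) against 35.6 ± 4.86 (SD, n = 3). In the table this contrast in spread was missing, with 37.5 ± 2.77 (SD, n = 3) for rhTM and 33.7 ± 2.40 (SD, n = 3) for saline. With rhTM, the log2 fold change of Rela was 0.0085 (SE 0.14), with a 95% interval from -0.32 to 0.33 and an exact permutation p of 0.9, where 3 against 3 arrays cannot go below 0.10. By the table the log2 fold change was 0.15, from -0.11 to 0.42, and all rhTM arrays exceeded all saline arrays, with an exact permutation p of 0.1 and a limma adjusted p of 0.53. In that table the lowest rhTM array, at 35.5, stood next to the highest saline array, at 35.2. Without the exchanged arrays it was 0.12. A second, dimmer Rela probe gave a log2 fold change of -0.44 in the scanner data and 0.19 in the table, so the probes of Rela differ in sign in the scanner data.

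Rel encodes c-Rel, the subunit best known in lymphoid and myeloid cells. Its signal was dim but well above background on all 6 arrays, at 0.122, 0.107 and 0.0804 times the 75th percentile in saline mice and 0.103, 0.0890 and 0.103 times in rhTM mice. Saline mice 1 and 3 were the highest and the lowest, and the rhTM-treated mice lay between them, whereas in the table the highest array was that of rhTM mouse 2. For Rel the log2 fold change was -0.05 (SE 0.18), from -0.48 to 0.38, with an exact permutation p of 0.8. It changed sign with the assignment of the arrays, to 0.25 (from -0.09 to 0.60, limma adjusted p = 0.45) in the table and to 0.15 without the exchanged arrays, and no direction can be given for Rel.

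Nfkb1 encodes p105, the precursor of the p50 subunit, which also acts as an IκB. Its signal was 0.631, 0.889 and 0.702 times the 75th percentile in saline mice and 0.697, 0.631 and 0.539 times in rhTM mice. The values overlapped, with saline mouse 2 the highest and rhTM mouse 3 the lowest. The log2 fold change was -0.24 (SE 0.17), with an interval from -0.66 to 0.17 and an exact permutation p of 0.3, and -0.10 without saline mouse 2. It was -0.24 in the table as well (limma adjusted p = 0.52) and -0.37 without the exchanged arrays. Nfkb1 had nearly equal signals on the 2 exchanged arrays, and its fold change was below 0 under 26 of 26 alternative settings, from -0.37 to -0.07, and passed the threshold in none that had a test.

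Relb and Nfkb2 are the subunits of the non-canonical pathway, in which processing of the Nfkb2 product p100 to p52 frees RelB dimers. By its brighter probe Relb was at 6.33, 6.69 and 6.08 times the 75th percentile in saline mice and 5.93, 6.33 and 6.02 times in rhTM mice. The highest array was 1.13-fold above the lowest, and 2.54% of all genes tested had a smaller range over the 6 arrays. Its log2 fold change was -0.06 (SE 0.11), from -0.32 to 0.20, with an exact permutation p of 0.2, and was -0.06 in the table (limma adjusted p = 0.77) and -0.09 without the exchanged arrays. It was below 0 under 26 of 26 alternatives, from -0.10 to -0.03, which all reuse the same arrays. A second Relb probe gave -0.14 in the scanner data and -0.27 in the table.

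The Nfkb2 signal was 14.8, 13.6 and 10.6 times the 75th percentile in saline mice and 8.27, 12.8 and 12.6 times in rhTM mice. The lowest array was that of rhTM mouse 1, and the other 5 arrays overlapped. For Nfkb2 the log2 fold change was -0.23 (SE 0.22), from -0.75 to 0.29, with an exact permutation p of 0.5, and was -0.09 in the table (limma adjusted p = 0.88) and -0.24 without the exchanged arrays. Without rhTM mouse 1 it was -0.02 in the scanner data and 0.16 in the table. The second Nfkb2 probe gave -0.24 in the scanner data and -0.25 in the table.

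Among the inhibitors, Nfkbia encodes IκBα, the inhibitor that NF-κB rapidly makes anew to end its own activity. Its signal was 76.5, 83.8 and 83.9 times the 75th percentile in saline mice and 113.6, 88.7 and 74.5 times in rhTM mice. The rhTM-treated mice held both the highest and the lowest array, and their SD was 19.8 around a mean of 92.2 against 4.26 around 81.4 in saline (n = 3 each). Its log2 fold change was 0.16 (SE 0.17), from -0.25 to 0.57, with an exact permutation p of 0.5. Without rhTM mouse 1 it was -0.0016 in the scanner data and -0.18 in the table. With all arrays of the table it was 0.02 (limma adjusted p = 0.97), and without the exchanged arrays 0.13.

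Nfkbie encodes IκBε, a slower inducible inhibitor. Its signal was 2.36, 2.38 and 2.16 times the 75th percentile in saline mice and 2.02, 2.37 and 2.27 times in rhTM mice. The groups overlapped, with rhTM mouse 1 the lowest. The log2 fold change was -0.05 (SE 0.12), and 0.01 without that array, with an interval from -0.34 to 0.24 and an exact permutation p of 0.6, and was -0.06 in the table (limma adjusted p = 0.81) and -0.08 without the exchanged arrays.

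Tnfaip3 encodes A20, a ubiquitin-editing enzyme that restrains signalling upstream of the IκB kinases. Its signal was 15.3, 13.2 and 13.5 times the 75th percentile in saline mice and 13.9, 15.7 and 14.1 times in rhTM mice. Each group held 1 higher and 2 lower arrays, and the groups overlapped. For Tnfaip3 it was 0.06 (SE 0.12), from -0.23 to 0.35, with an exact permutation p of 0.5, and was 0.04 in the table (limma adjusted p = 0.90) and 0.07 without the exchanged arrays.

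Nfkbiz and Bcl3 encode nuclear IκB proteins, IκBζ and BCL-3, which bind p50 or p52 homodimers on DNA and modulate secondary target genes. The Nfkbiz signal was 3.85, 3.81 and 3.41 times the 75th percentile in saline mice and 3.38, 3.98 and 3.80 times in rhTM mice. Each group held 1 low and 2 higher arrays and the groups overlapped. Its log2 fold change was 0.0095 (SE 0.12), from -0.29 to 0.30, with an exact permutation p of 1, and was -0.02 in the table (limma adjusted p = 0.94) and -0.0089 without the exchanged arrays. A second Nfkbiz probe gave -0.23 in the scanner data and -0.15 in the table, on the other side of 0 from the first in the scanner data.

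The Bcl3 signal was 22.9, 17.8 and 12.3 times the 75th percentile in saline mice and 16.1, 18.5 and 18.8 times in rhTM mice. The saline-treated mice held both the highest and the lowest array, 1.86-fold apart, whereas in the table the highest array was that of rhTM mouse 2. The log2 fold change was 0.05 (SE 0.23), from -0.50 to 0.60, with an exact permutation p of 0.8. By the table it was 0.26 (from -0.24 to 0.75, limma adjusted p = 0.58) and without the exchanged arrays 0.23, and without saline mouse 3 it was -0.19 in the scanner data.

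**Figure D2:**
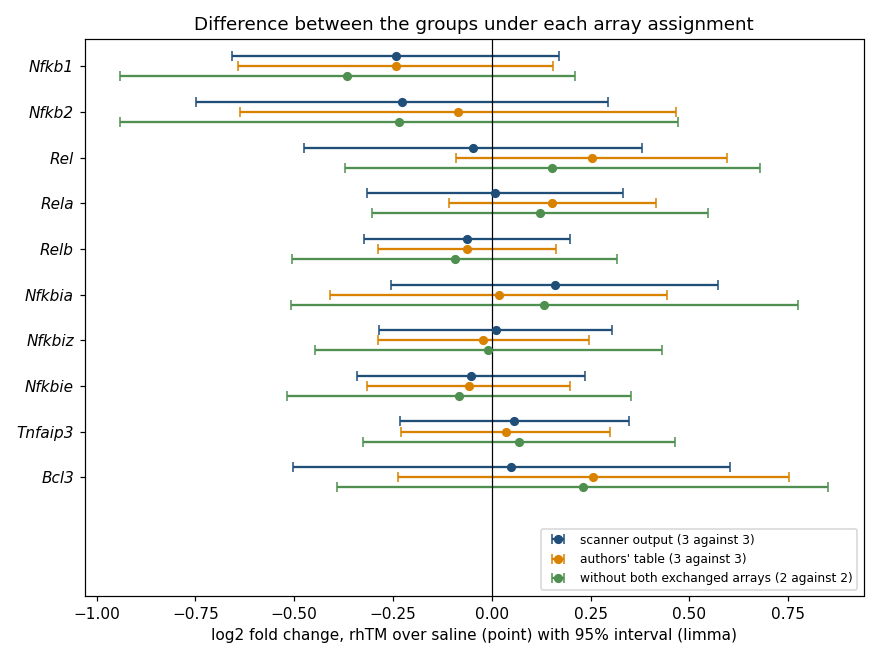
Log2 fold change, rhTM over saline, of each gene (points) with its 95% limma interval (lines), in the scanner data, by the authors' table and without the 2 arrays that these exchange. Every interval includes 0, and Rel and Nfkbiz lie on different sides of 0 in the scanner data and in the table.

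By the brightest probe of each gene, the 10 genes differed in their spread across the 6 mice, whichever group an exchanged array belonged to. The range over the 6 arrays was 0.17 log2 units for Relb, 0.24 each for Nfkbiz, Nfkbie and Tnfaip3 and 0.39 for Rela, against a median of 0.54 over all genes tested. It was 0.60 for Rel, 0.61 for Nfkbia, 0.72 for Nfkb1, 0.84 for Nfkb2 and 0.90 for Bcl3, all above that median. For the 4 genes with the smallest of these ranges, between 2.54% and 8.72% of all genes had a smaller range, and for Bcl3 77.9% had. The order depended on the probe, since the dimmer second probes spanned 1.17 log2 units for Rela, 0.45 for Relb and 0.41 for Nfkbiz. Brightness also enters such a range, and how far it did was not tested.

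Individual mice differed in which genes stood out. The array that is saline 1 in the scanner data and rhTM 2 in the table had the highest signal for 4 of the 10 genes, Nfkb2, Rel, Rela and Bcl3, and saline mouse 3 the lowest for 3, Rel, Rela and Bcl3. Saline mouse 3 was above the mean of its gene for 1 of the 10 genes only, Nfkb1, and its mean deviation over the 10 genes was -0.14 log2 units, against 0.12 for saline mouse 1 and 0.08 for saline mouse 2. The rhTM-treated mice had mean deviations of -0.05, 0.03 and -0.03 and lay between the saline-treated mice in the scanner data. In the table they did not, and the mean deviations ran from -0.14 to 0.08 in saline and from -0.05 to 0.12 with rhTM. The 9 alveolar epithelial markers had mean deviations of 0.16, 0.16 and -0.12 in saline mice 1, 2 and 3 and of -0.15, 0.03 and -0.08 in rhTM mice, with 1 marker higher and 8 lower in mean with rhTM (median -0.12) in the scanner data and 4 higher and 5 lower (median -0.02) in the table, and their part in the values of saline mouse 3 was not tested. The rhTM mouse 1 had the highest Nfkbia together with the lowest Nfkb2, Relb, Nfkbiz and Nfkbie, with deviations of 0.40 log2 units for Nfkbia and -0.53 for Nfkb2. On the same array the 6 neutrophil markers tested of 7 listed had a mean deviation of 0.33, against -0.14 to 0.0086 on the other 5 arrays. Retnlg (0.73), Ngp (0.65) and Mmp8 (0.32) carried it, while S100a8 (0.13), S100a9 (0.12) and Cxcr2 (0.05) were highest on other arrays. Of the 2 erythroid markers tested of 3 listed, Alas2 deviated by 1.08 there and Ermap by 0.00038. On this array the mean of the airway epithelial markers was also the highest (0.37). The means of the fibroblast (-0.37) and of the monocyte and macrophage markers (-0.14) were the lowest. The members of these lists were split. Scgb1a1 (0.10) and Scgb3a2 (0.03) were highest on the array of rhTM mouse 3. Col1a1 (-1.24) and Col1a2 (-0.88) carried the fibroblast mean, against Pdgfra (0.32) and Dcn (0.33). Among the macrophage markers, Marco (0.04) and Chil3 (0.18) were above their means. On the array that is saline 1 in the scanner data, the mean of the T and NK cell markers was highest (0.20, against 0.19 in saline mouse 3). Cd4 (1.85) carried it, with Cd3g (0.34) and Ncr1 (0.11) also above their means. Cd3d (-0.27), Cd8a (-0.19), Klrb1c (-0.34) and Cd3e (-0.05) were below theirs. The means of the B cell (-0.56) and endothelial markers (-0.13) were lowest there, and the endothelial mean was -0.12 in rhTM mouse 1. Of the neutrophil markers, 5 had higher and 1 had lower means with rhTM (median log2 fold change 0.13, and 0.23 in the table), their mean deviations ranged from -0.11 to 0.0086 in saline and from -0.14 to 0.33 with rhTM, and Ly6g was not among the genes tested. The part of these markers in the values of the 10 genes on either array was not tested.

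**Figure D3:**
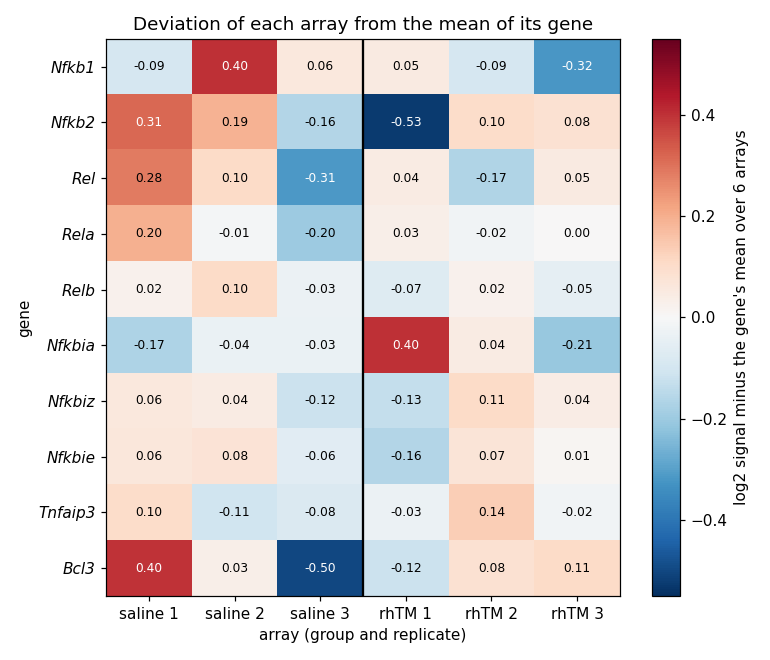
Log2 signal of each gene (rows) on each array (columns) minus the mean of that gene over the 6 arrays, in the scanner data; red is above and blue below the mean, and the vertical line divides saline from rhTM. Saline 3 is low for Bcl3 and Rel, and rhTM 1 is low for Nfkb2 and high for Nfkbia.

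Across the 6 arrays, 31 of the 45 pairs of these genes had a Pearson r above 0, with a median of 0.35 and a range from -0.85 to 0.96. With the mean centred profile of the other 9, Bcl3 (r = 0.80), Rela (0.75) and Nfkbiz (0.71) were the most alike, and Nfkb1 (-0.10) and Nfkbia (-0.48) were the least. All pairs share the same 6 arrays and their scaling, so these values are a description. The 5 genes outside the group whose profile was most like the mean profile of the 10 were Actn1 (r = 0.996), an actin cross-linker, Kif14 (0.989), a mitotic kinesin, Zscan21 (0.988), a zinc finger protein, Ppp3cb (0.983), a catalytic subunit of calcineurin, and Bdnf (0.980), a neurotrophin. They were picked as the highest of all genes tested over only 6 arrays.

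The values were also taken by slide. With the slide as a block the fold changes in the scanner data were the same as without it, since each group had 1 array on the second slide, and the lowest limma adjusted p of the 10 genes was 0.92. Within the first slide, saline 2 and 3 against rhTM 1 and 2, the means of 6 genes were higher with rhTM, with a median of 0.03 and log2 fold changes from -0.25 for Nfkb1 to 0.26 for Nfkbia. Within the second slide, saline 1 against rhTM 3 with no replicate and no test, all 10 genes were lower with rhTM, with a median of -0.16 and values from -0.29 for Bcl3 to -0.02 for Nfkbiz. By the table both arrays of the second slide were of rhTM-treated mice, so a fit with the slide as a block compared rhTM mouse 1 alone with the saline-treated mice. That fit assumes that the lone array varies like the others, and its values are of 1 mouse and do not measure a difference between treatments. They were -0.57 for Nfkb2 (from -1.02 to -0.12, limma adjusted p = 0.12) and 0.41 for Nfkbia (from 0.15 to 0.67, limma adjusted p = 0.09).

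The rest of the pathway was read from lists of its parts, and 0 genes of any list passed a limma adjusted p of 0.05 by either source. At an unadjusted p under 0.05 there was 1 gene over the 5 lists in the scanner data, and in the table there were 1 of the other IκB proteins, 0 of the IKK list, 4 of the TRAF list, 2 of the negative regulators and 3 of the targets. Such a p was held by 1.87% and 14.0% of all genes in the scanner data and in the table. Without the exchanged arrays the medians of the 5 lists, in the order given here, were -0.25, -0.03, -0.07, 0.02 and -0.03. Of the other IκB proteins, Nfkbib had a log2 fold change of -0.04 and Nfkbid, a nuclear IκB, of -0.17 in the scanner data. Without saline mouse 2 they had 0.03 and -0.08, and without saline mouse 1 they had -0.10 and -0.28. By the table they had -0.11 and -0.35, and the groups did not overlap for either, as for 21.7% of all genes there. Of 11 genes of the IKK complex and its upstream kinases, 6 had higher and 5 lower means with rhTM, with a median of 0.0074, whereas the table gave 3 higher and 8 lower means, with a median of -0.14. The highest was Tab3, an adaptor of the kinase TAK1, at 0.31 (limma adjusted p = 1.00), and it was the only one of the 11 with an unadjusted p under 0.05. Chuk, the kinase IKKα, had 0.25, and in both genes all rhTM arrays exceeded all saline arrays (5.52% of all genes had groups apart), whereas the groups overlapped in the table, at 0.13 and 0.02. For Chuk the lowest rhTM array, at a log2 level of 2.917, stood next to the highest saline array, at 2.913. The lowest gene of this list was Ikbke at -0.18, and it was 0.04 without rhTM mouse 3.

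Of 13 TRAF, RIPK1 and ubiquitin ligase genes, which carry the signal from receptors to the kinases, 7 had higher and 6 lower means, with a median of 0.00096. They ran from Traf1, itself a known NF-κB target, at -0.29 to Ube2n, a ubiquitin-conjugating enzyme, at 0.12. Traf1 was -0.13 without rhTM mouse 1 and -0.49 without rhTM mouse 2, and Ube2n was 0.08 without rhTM mouse 1. Lower means were held by 10 of the 13 in the table, with a median of -0.15, and 4 had an unadjusted p under 0.05. Rbck1, a subunit of the linear ubiquitin assembly complex, was the lowest in the table at -0.57 (limma adjusted p = 0.31), and had -0.25 in the scanner data (-0.07 without saline mouse 2 and -0.45 without rhTM mouse 2), and Sharpin, of the same complex, was the highest at 0.12. Of 15 other negative regulators, 7 had higher and 8 lower means, with a median of -0.02 (9 and 6 in the table, median 0.04), from Pdlim2 at -0.28 (-0.43 without rhTM mouse 2) to Commd1 at 0.14 (0.06 without saline mouse 2). By the table Pdlim2 was again the lowest at -0.35, and Zc3h12a, an endonuclease that degrades inflammatory mRNAs, was the highest at 0.35, against -0.12 in the scanner data. The scanner value of Zc3h12a was 0.05 without saline mouse 1 and -0.35 without saline mouse 3.

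Of 17 NF-κB target genes, 9 had higher and 8 lower means, with a median of 0.0050. The chemokine gene Cxcl2 was the highest at 0.81, from -0.15 to 1.76, and the adhesion molecule gene Icam1 the lowest at -0.54, from -1.20 to 0.12. Cxcl2 had log2 levels relative to the 75th percentile of -0.50, -0.71 and -0.55 in saline mice and 1.19, -0.46 and -0.07 in rhTM mice. Icam1 had log2 levels of 2.88, 3.18 and 2.39 in saline mice and 1.91, 2.73 and 2.20 in rhTM mice. For Cxcl2 all rhTM arrays exceeded all saline arrays, as groups were apart for 5.52% of all genes, but they overlapped in the table, at 0.78. For Icam1 the groups overlapped, and rhTM mouse 1 had the highest Cxcl2 and the lowest Icam1, as it had the highest Nfkbia and the lowest Nfkb2. By the table the targets ran from Vcam1, an adhesion molecule, at -0.73 to Il6 at 1.21 (limma adjusted p = 0.36 and 0.31), which had -0.36 and 0.45 in the scanner data, and 7 had higher and 10 lower means, with a median of -0.03. Without the exchanged arrays Csf3, a granulocyte growth factor gene, was the highest at 1.36, against 0.77 in the scanner data. Without rhTM mouse 1 in the scanner data, Cxcl2 was 0.32, Csf3 0.30, Icam1 -0.35, Il6 -0.16 and Vcam1 0.07, so the values of these 5 targets moved by over 1.5 times or changed sign. The mean deviation of the target genes was also lowest in saline mouse 3, at -0.25, and highest, at 0.14, on the array that is saline 1 in the scanner data and rhTM 2 in the table.

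**Figure D4:**
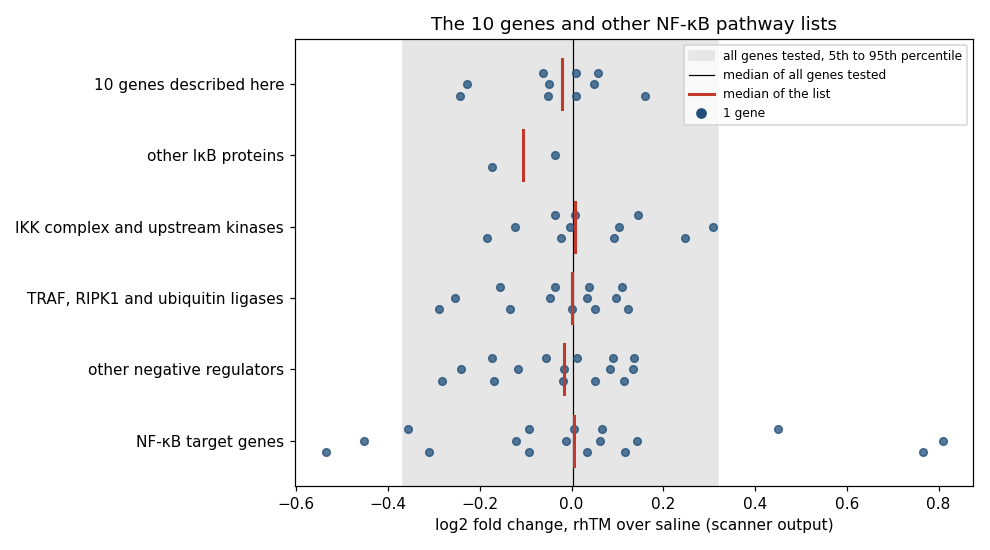
Log2 fold change, rhTM over saline, of each gene (points) of the 10 genes and of 5 other lists of the NF-κB pathway in the scanner data, with the median of each list (red line) and the 5th to 95th percentile of all genes tested (grey band, -0.37 to 0.32). The 10 genes lie within the band and 5 of the 17 target genes lie outside it.

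**Figure D5:**
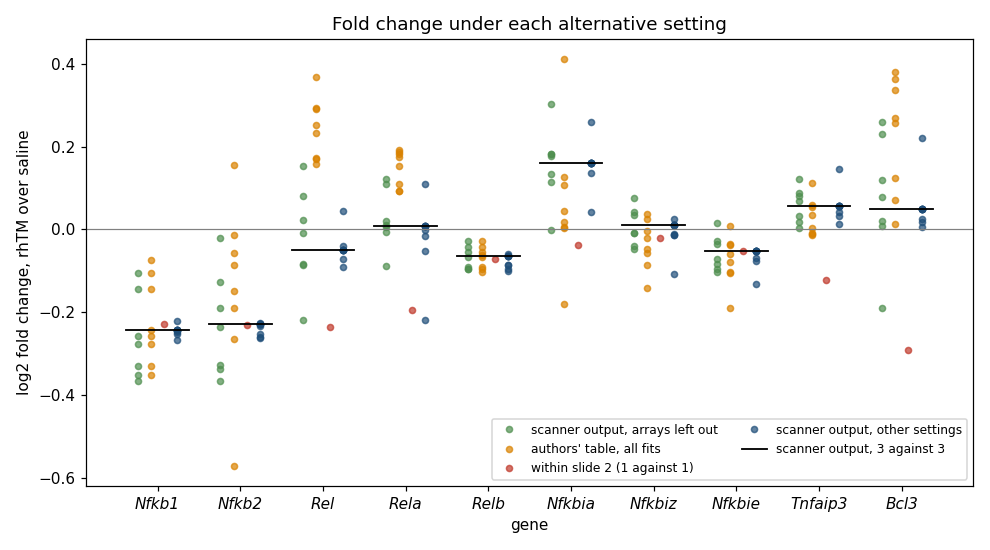
Log2 fold change, rhTM over saline, of each of the 10 genes under the 26 alternative settings (points, coloured by kind) with the value of the scanner output (black line). Nfkb1 and Relb stay below 0 under every setting, Nfkb2 under every setting but 1, and the other 7 have values on both sides of 0. The settings reuse the same arrays, and several give the same value by design.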

How the data were processed

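RNA from the lungs of 3 mice given saline and 3 given rhTM was read on 1-colour Agilent SurePrint G3 Mouse arrays, 1 per mouse. The labels and the methods name different RNA extraction kits. The authors deposited the output of Feature Extraction 10.7.3.1 per the file headers (the submitters' processing notes name 9.1), whose processed signal is an intensity corrected for background, and a table of the same intensity values averaged over spots, with 2 arrays exchanged. The deposited flags mark spots well above background, saturated spots and outliers. From the deposited intensity, control spots were left out, 398 of 56605 probes were dropped for outlier flags, and log2 signal was scaled by each array's 75th percentile (675.4 to 849.8). Accessions were matched to RefSeq genes of GRCm38.p6 (32994 probes, 22911 symbols). Probes well above background on all arrays of a group were kept (36061), and the brightest stood for its gene (16370 genes, 16320 in the table). All 14 probes of the 10 genes were above background on all 6 arrays.

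Groups came from the sample labels and were compared with limma 3.58.1 (lmFit and eBayes) in R 4.3.3, with Benjamini-Hochberg adjustment over all genes at 0.05 and 95% intervals. Single genes were also compared by two-sided exact permutation. The limma fit was run on simulated independent values with shifts larger than the differences of the 10 genes, which does not show its power for these. Named genes were the 10 genes, genes of the pathway lists past the threshold, the highest and lowest of each list, and the 5 with the most similar profile. Chuk, the values of Rbck1 and Zc3h12a under the other source, and Sftpc, Ager and Scgb1a1, were added beside them. The genes, lists and tests were chosen with earlier results of these data known. Alternatives changed the assignment of arrays, background correction (normexp, offset 50, on median spot signals, since no mean signal was used here), scaling, filter, probe choice, slide, replicate number, each array and the test. The methods' t-test, run on the same log2 values of the scanner data, gave 340 genes at an unadjusted p under 0.05, 0 after adjustment, and 1 higher and 0 lower gene at the methods' fold (2 or 0.5) and P (0.01) thresholds. With unadjusted limma p-values at these thresholds, 3 higher and 3 lower genes were counted in the scanner data. The table gave 52 and 13, and the arrays left without the exchanged ones gave 65 and 57.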

Additional observations from a re-analysis of the deposited data

How the results depend on the processing

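None of the 10 genes passed the threshold under any alternative with a test (1 against 1 array within the second slide has none), and 46 of 260 fold changes changed sign against the scanner output, 5 of them within the second slide. The number of all genes past the threshold was 0 in the scanner data and the table, 1 without the exchanged arrays and 432 in the slide-blocked table, and 0 to 589 when single arrays were left out (589 in the table without rhTM replicate 1). Of the 10 genes, 3 were higher with normexp, quantile scaling, a 75th percentile over detected probes or the mean of a gene's probes, 0 within the second slide, and 2 to 7 when single arrays were left out. Their median was -0.16 within the second slide and -0.096 to 0.061 when single arrays were left out. Rel became 0.25 in the table, 0.15 without the exchanged arrays, 0.17 in the slide-blocked table and 0.044 within the first slide. Nfkbiz became -0.021, -0.0089 and -0.14 under the first 3 of these, and -0.011 with normexp, -0.013 with quantile scaling, -0.014 with the percentile over detected probes and -0.11 with the mean of probes. Under those last 4 Rela became -0.00042, -0.051, -0.015 and -0.22. Tnfaip3 became -0.014 in the slide-blocked table. When single arrays were left out of either source, the ranges were -0.35 to -0.10 for Nfkb1, -0.095 to -0.027 for Relb, -0.22 to 0.37 for Rel, -0.088 to 0.19 for Rela, -0.086 to 0.077 for Nfkbiz, -0.18 to 0.30 for Nfkbia, -0.10 to 0.015 for Nfkbie, -0.37 to 0.16 for Nfkb2, -0.011 to 0.12 for Tnfaip3 and -0.19 to 0.38 for Bcl3. The causes were not tested. With a replicate block the fold changes were the same and 0 genes passed the threshold, with 377 at an unadjusted p under 0.05 against 306. Same-numbered arrays had correlations of -0.30, 0.44 and -0.45. Replicates 1 and 2 include the exchanged arrays, so these values cannot settle whether the numbers pair the samples. All probes of the 10 genes were above background on all 6 arrays.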
